A study of Mus musculus with 6 samples.

Results

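The genes described here are 10 markers of the brain's capillary wall: Cldn5, Pecam1, Cdh5, Flt1, Kdr, Tek, Slco1a4 and Abcb1a of endothelial cells, and Pdgfrb and Rgs5 of pericytes. They were taken as a fixed list of symbols, and every probe set whose gene symbol entry held one of them was read, which gave 19 probe sets for the 10 genes out of 45077 probe sets and 22527 symbol entries on the array. Several short probes read together as a probe set report on a transcript, and 5 of the 10 genes had more than 1 probe set. RNA came from the cerebral cortex of 6 male mice in 3 groups of 2, and was read on Affymetrix arrays. The labels give an age of 16 weeks. In the study mice of that age were acclimatized, dosed and tested before the cortex was taken, so they were older by then. SAMR1 + Water was the senescence-resistant strain SAMR1, SAMP8 + Water was SAMP8, an inbred strain prone to accelerated senescence, and both were given water by mouth. SAMP8 + STEE was SAMP8 given sugarcane top ethanolic extract (STEE) by mouth at 20 mg/kg for 30 days and on through 8 days of behavioral tests. By the study's methods all mice were housed singly, and BrdU, a label of dividing cells, was put in their drinking water. The labels name no transgene, and the strain comparison sets whole inbred strains against each other, not a single gene.

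The values are the authors' mean log2 signals of a group, with no value per mouse used here, so no difference below has a replicate check, an error or a test. A difference is the difference of these means on the log2 scale, and a fold of 1.2, which is 0.263 on that scale, is used only to count the larger ones. Differences that small can lie within the spread between mice, which is not known here. Levels are compared between groups within a probe set and never between probe sets, because probes differ in how brightly they bind. In tissue a lower signal can mean fewer cells of a type or less RNA per cell, and these cannot be told apart. Whether SAMP8 and SAMR1 differ in sequence where the probes bind was not tested.

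Brain endothelial cells are joined by tight junctions and carry transporters that pass nutrients and pump out foreign compounds, and with pericytes and astrocyte endfeet they form the blood-brain barrier. VEGF and angiopoietin receptors on the endothelium govern vessel growth and stability. Endothelial PDGF-B holds pericytes on the capillary through the receptor PDGFR-beta. Of the 19 probe sets, 16 had a mean signal above 4.15, the median of all probe sets. Those of Pecam1 and Tek and the dimmer one of Cdh5 lay below it, where a difference in the RNA is least visible. The 8 listed genes of cortical excitatory neurons each had a signal above that median in every group. No other tissue was at hand for contrast, so this does not tell cortex from other brain tissue.

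Promoters are shown for Abcb1a and Rgs5, which had the largest strain differences at any probe set, and for Cldn5, whose protein seals the barrier. Each runs from 250 bases before to 50 bases after the RefSeq start in GRCm38.p6, 5′ to 3′ on the gene's own strand, and all 3 genes lie on the plus strand. They lie at chr5:8566841-8567140 for Abcb1a, chr1:169655251-169655550 for Rgs5 and chr16:18776597-18776896 for Cldn5. Capitals mark matches on either strand to short motif letters. For the ETS family of endothelial factors the letters CCGGAA were searched, and as another form of that motif AGGAAG. The GATA family was searched as AGATAA. The SOX family was searched as ACAAAG.
Abcb1a promoter: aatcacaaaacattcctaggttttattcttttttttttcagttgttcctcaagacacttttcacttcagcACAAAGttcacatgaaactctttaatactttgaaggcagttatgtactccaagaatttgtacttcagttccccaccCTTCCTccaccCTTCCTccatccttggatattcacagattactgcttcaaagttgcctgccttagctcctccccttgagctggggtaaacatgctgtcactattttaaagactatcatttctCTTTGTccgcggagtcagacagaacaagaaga
Rgs5 promoter: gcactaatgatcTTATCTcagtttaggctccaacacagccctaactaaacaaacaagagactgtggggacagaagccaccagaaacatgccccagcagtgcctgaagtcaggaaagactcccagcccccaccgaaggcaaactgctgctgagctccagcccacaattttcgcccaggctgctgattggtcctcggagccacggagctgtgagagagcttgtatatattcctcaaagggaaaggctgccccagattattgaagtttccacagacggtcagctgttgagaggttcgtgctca
Cldn5 promoter: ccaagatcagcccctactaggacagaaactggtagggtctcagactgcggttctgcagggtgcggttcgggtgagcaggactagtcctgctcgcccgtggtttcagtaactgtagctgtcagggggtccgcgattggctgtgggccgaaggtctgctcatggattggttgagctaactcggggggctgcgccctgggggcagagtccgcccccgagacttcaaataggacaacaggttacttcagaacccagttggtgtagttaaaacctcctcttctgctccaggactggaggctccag
The Abcb1a promoter held AGGAAG 2 times and ACAAAG 2 times, the Rgs5 promoter held AGATAA 1 time, and the Cldn5 promoter held none of the 4. The table had an entry for 7 of the 10 members, not for Pecam1, Cdh5 or Pdgfrb, and of these 7, 3 held AGGAAG, 2 held AGATAA, 2 held ACAAAG and 1 held CCGGAA. Over all 32851 promoters in the table the shares were 35.4% for AGGAAG, 11.2% for AGATAA, 18.7% for ACAAAG and 14.9% for CCGGAA. The ETS forms differ in the base before GGA, so 1 core cannot match both on the same strand. A match is only a run of letters.

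Between the strains, Abcb1a was higher in SAMP8, Rgs5 was higher at all but its brightest probe set, and Cldn5 and Pdgfrb were slightly lower. With each gene read at its brightest probe set, 1 of the 10 members was higher in SAMP8 + Water than in SAMR1 + Water by at least 1.2-fold, against 3.68% of all 22527 genes, and 2 were lower, against 3.19%. By probe set, 5 of 19 were higher, against 3.68% of all 45077 probe sets, and 3 were lower, against 3.43%. The 5 higher probe sets belonged to only 2 genes, Abcb1a and Rgs5, so they are not 5 separate results. The median difference of the 10 genes was -0.04, beside 0.0 over all genes, and 7 of the 10 were lower. The plot of group means by probe set shows these levels.

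**Figure D1:**
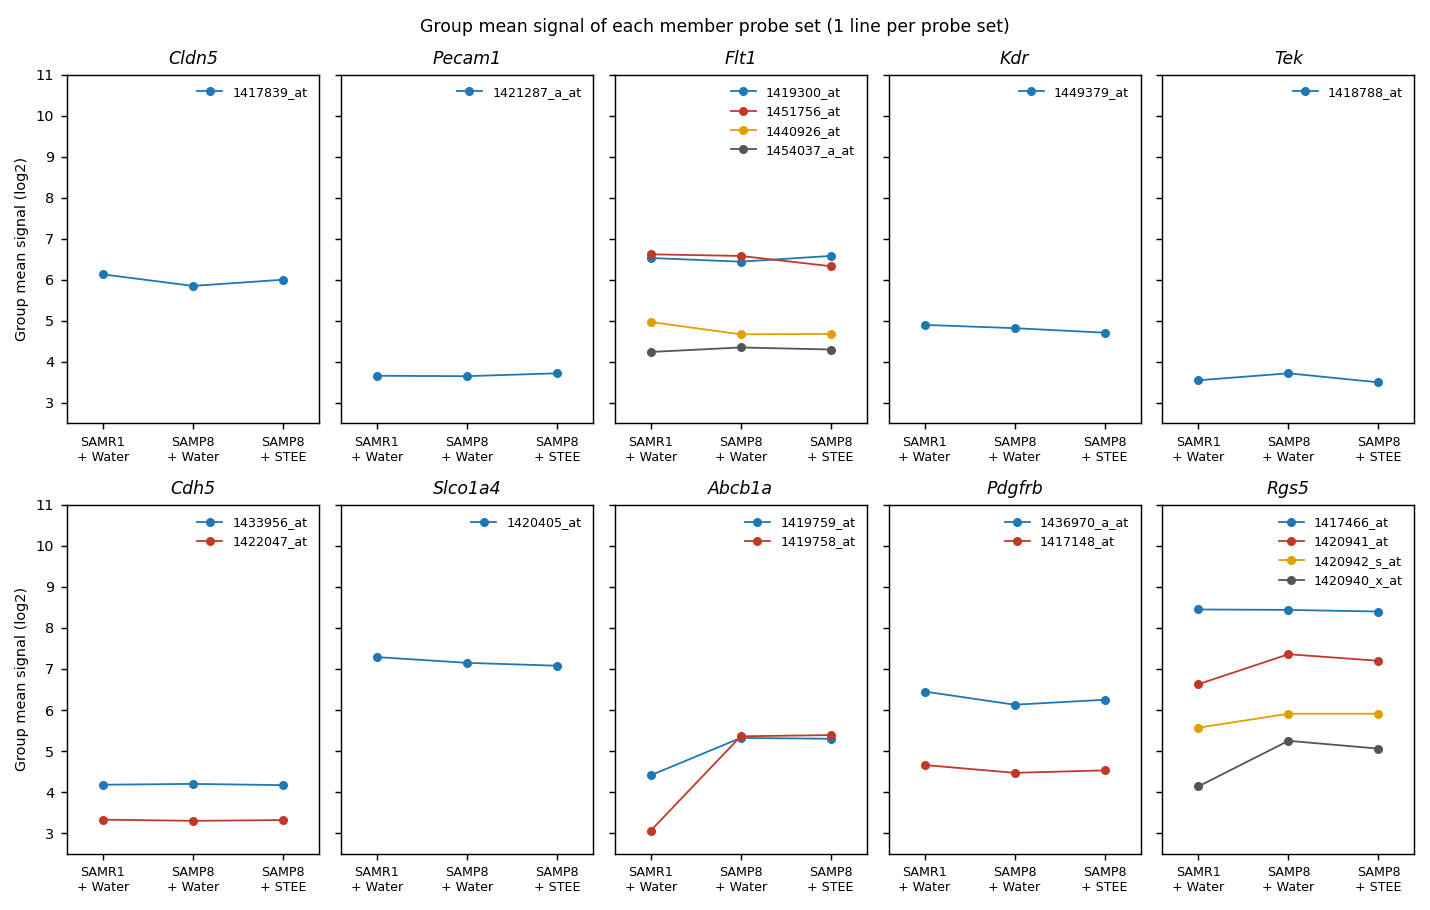
Authors' group mean signal (log2, vertical axis) in SAMR1 + Water, SAMP8 + Water and SAMP8 + STEE for each probe set of the 10 genes, 1 line per probe set. No error is drawn because values per mouse were not used. The lines of Abcb1a climb from 3.06 and 4.41 in SAMR1 + Water to between 5.30 and 5.39 in both SAMP8 groups, while the brightest line of Rgs5 stays between 8.40 and 8.45.

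Abcb1a encodes P-glycoprotein, the efflux pump that returns many drugs and lipophilic compounds from the endothelial cell to the blood. Its probe set 1419758_PM_at had mean log2 signals of 3.06 in SAMR1 + Water, 5.36 in SAMP8 + Water and 5.39 in SAMP8 + STEE. Its probe set 1419759_PM_at had 4.41, 5.32 and 5.30 in the same order. Both SAMP8 groups thus lay close together and above SAMR1 at both probe sets. The strain difference was 2.30 at the first, a size reached by 14 of all 45077 probe sets. Its SAMR1 signal of 3.06 lies below the array's median of 4.15 and was not shown to be above background, and its mean passes that median only through the SAMP8 groups, so no fold is given and the difference and its rank are to be read with that limit. It was 0.91 (1.88-fold) at the second, a size reached by 77 probe sets (0.171%). Both probe sets were designed on the same transcript, yet their strain differences lay 1.39 apart. Among 5675 symbol entries with 2 probe sets the median gap was 0.10, and 12 (0.211%) had a gap of 1.39 or more, a value that carries the same limit. The direction was shared by both probe sets, and the size was not.

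Abcb1b, the close paralog that also encodes a P-glycoprotein, did not share this pattern. Its brighter probe set had 3.68, 3.76 and 3.75 in SAMR1 + Water, SAMP8 + Water and SAMP8 + STEE, and its dimmer one 3.75, 3.37 and 3.25. The strain differences were thus 0.08 and -0.38, both at low signal. Because the paralogs are near-identical in parts, probes may bind both transcripts.

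Slco1a4, an organic anion transporter that also carries thyroid hormone across the endothelium, stood at 7.29 in SAMR1 + Water, 7.15 in SAMP8 + Water and 7.08 in SAMP8 + STEE. It was lower in SAMP8 + Water by 0.14 on the log2 scale (1.1-fold), and 13.5% of all probe sets were lower by as much. Its order was SAMR1 + Water above SAMP8 + Water above SAMP8 + STEE, with steps too small to call.

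Rgs5 encodes a regulator of G-protein signaling that is among the most abundant pericyte transcripts. Its brightest probe set, 1417466_PM_at, had 8.45 in SAMR1 + Water, 8.44 in SAMP8 + Water and 8.40 in SAMP8 + STEE. The probe set 1420941_PM_at had 6.63, 7.36 and 7.20, and 1420942_PM_s_at had 5.57, 5.91 and 5.91. The last, 1420940_PM_x_at, had 4.14, 5.25 and 5.06. At these 3, SAMR1 + Water was the lowest group, by 0.73 (1.66-fold), 0.34 (1.27-fold) and 1.11 (2.16-fold) against SAMP8 + Water, while the brightest differed by -0.01. The SAMR1 + Water signal of 4.14 at 1420940_PM_x_at lies just under the array's median of 4.15, so its fold is to be read with that limit. The 3 share a design transcript that the brightest probe set does not come from, and the suffixes s and x mark probes that can match more than a single transcript. The range of 1.12 over the 4 was wide: among 1234 symbol entries with 4 probe sets the median range was 0.22, and 12 (0.972%) reached 1.12. Whether total Rgs5 RNA differed between the strains is therefore not settled by these probe sets.

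Pdgfrb encodes the PDGF receptor that marks pericytes and, in the brain, also smooth muscle and perivascular fibroblasts. Its brighter probe set, 1436970_PM_a_at, had 6.45 in SAMR1 + Water, 6.13 in SAMP8 + Water and 6.25 in SAMP8 + STEE. The dimmer one, 1417148_PM_at, had 4.66, 4.47 and 4.53. Both put SAMR1 + Water highest and SAMP8 + Water lowest, with strain differences of -0.32 (1.25-fold lower) and -0.19 (1.14-fold lower). Over all probe sets, 2.13% were lower by 0.32 or more and 7.71% by 0.19 or more.

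Cldn5 encodes claudin-5, the main tight junction protein of brain endothelium. Its single probe set had 6.13 in SAMR1 + Water, 5.85 in SAMP8 + Water and 6.00 in SAMP8 + STEE. The strain difference of -0.28 (1.21-fold lower) sits just past the 1.2-fold line, and 1381 probe sets (3.06%) were lower by as much.

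The other junction genes of the list were nearly level. Cdh5 encodes VE-cadherin, the adherens junction cadherin of all endothelium, and its brighter probe set had 4.18, 4.20 and 4.17 in SAMR1 + Water, SAMP8 + Water and SAMP8 + STEE. Its dimmer one had 3.33, 3.30 and 3.32. Pecam1, the platelet and endothelial adhesion molecule CD31, had 3.66, 3.65 and 3.72. Strain differences of these 3 probe sets lay between -0.03 and 0.02. These pan-endothelial genes thus did not share the lower Cldn5 level, but their signals were near or below the array's median.

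Among the receptors, Flt1 (VEGF receptor 1) had 4 probe sets that did not move together. The brightest, 1419300_PM_at, had 6.53, 6.44 and 6.58 in SAMR1 + Water, SAMP8 + Water and SAMP8 + STEE, and 1451756_PM_at had 6.62, 6.58 and 6.33. The probe set 1440926_PM_at had 4.97, 4.67 and 4.68, and 1454037_PM_a_at had 4.24, 4.35 and 4.30. Their strain differences were -0.09, -0.04, -0.30 and 0.11, so 1 of the 4 passed 1.2-fold. Flt1 is known to be spliced into a membrane receptor and a soluble form, and which form each probe set reads is not given in the sources used here. Kdr (VEGF receptor 2), the main signaling receptor for VEGF-A, had 4.90, 4.82 and 4.71. Tek, the angiopoietin receptor TIE2, had 3.55, 3.72 and 3.50. Their strain differences were -0.08 and 0.17, neither past 1.2-fold.

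**Figure D2:**
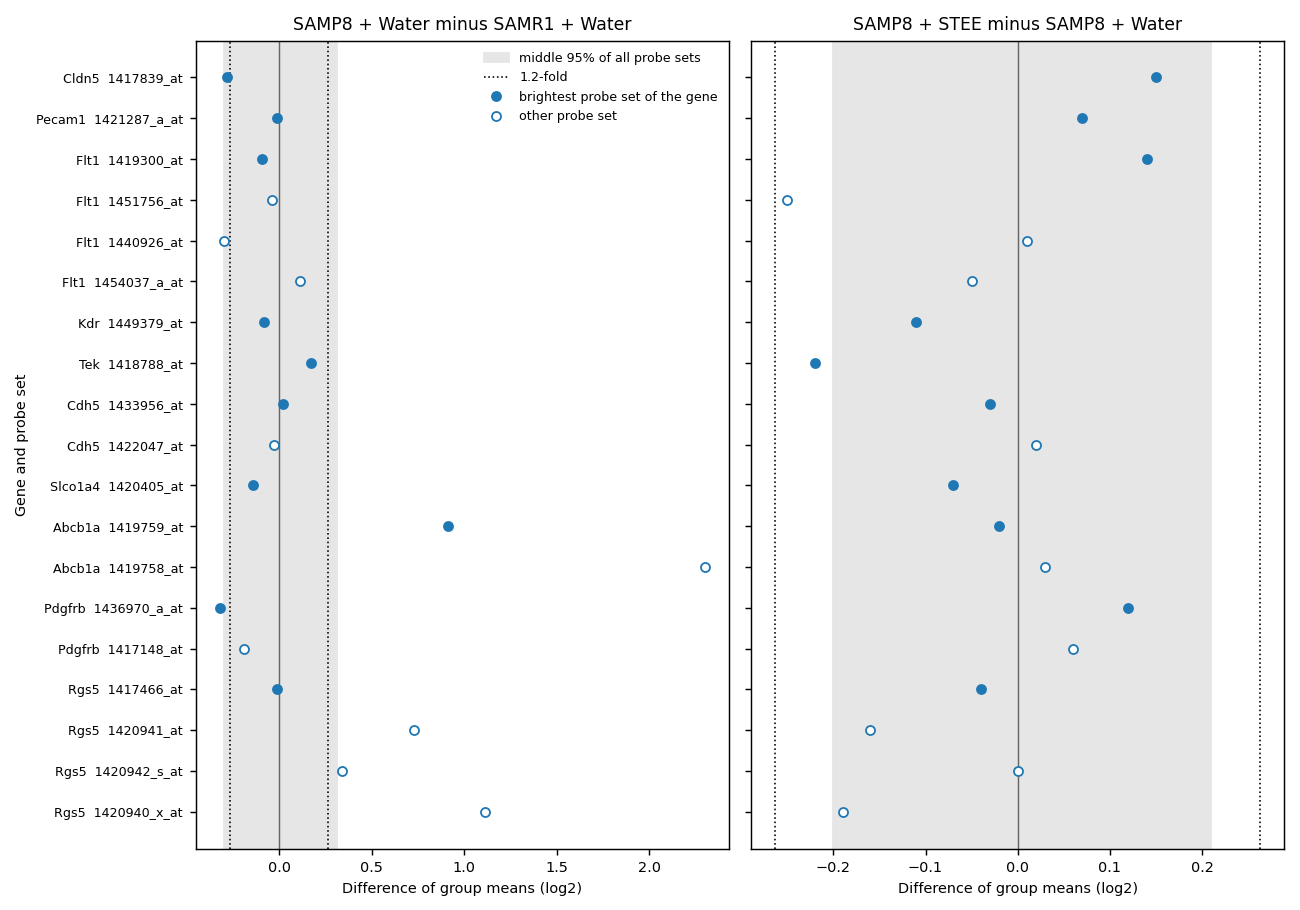
Differences of group means (log2, horizontal axis) for each of the 19 probe sets, strain on the left and STEE on the right, on different scales. Filled points are the brightest probe set of a gene, dotted lines mark 1.2-fold, and grey bands hold the middle 95% of all 45077 probe sets (-0.3 to 0.31 on the left, -0.2 to 0.21 on the right). On the left only probe sets of Abcb1a, Rgs5 and Pdgfrb lie outside the band, apart from Flt1 1440926_PM_at at its edge. On the right Flt1 1451756_PM_at (-0.25) and Tek (-0.22) lie below the band, and no point reaches the dotted lines.

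STEE-fed SAMP8 and water-fed SAMP8 differed little in these genes. Of the 10 members, 0 were higher by at least 1.2-fold, against 1.1% of all genes, and 0 were lower, against 0.923%. By probe set the counts were 0 of 19 higher, against 1.03% of all probe sets, and 0 of 19 lower, against 0.976%. At those shares 0 is near what the array as a whole shows. The median difference of the 10 genes was -0.03, beside 0.0 over all genes.

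The largest differences with STEE were downward. The Flt1 probe set 1451756_PM_at was lower by 0.25 on the log2 scale (1.19-fold), which 1.3% of all probe sets matched, but the brightest Flt1 probe set was higher by 0.14. Tek was lower by 0.22 (1.16-fold), which 2.12% matched, at a signal below the array's median. Kdr was lower by 0.11. The probe sets of Rgs5 that were high in SAMP8 stayed high, with differences of -0.16, 0.00 and -0.19, and those of Abcb1a differed by 0.03 and -0.02.

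Cldn5 and Pdgfrb, lower in SAMP8 + Water than in SAMR1 + Water, were a little higher with STEE. Cldn5 differed by 0.15 (1.11-fold), and 7% of all probe sets were higher by as much. The Pdgfrb probe sets differed by 0.12 and 0.06. The strain comparison and the STEE comparison use the same SAMP8 + Water arrays, so a chance low value there enters them with opposite signs.

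STEE-fed SAMP8 set directly against SAMR1 + Water does not use the SAMP8 + Water arrays. There 1 of the 10 genes, Abcb1a, was higher by at least 1.2-fold, against 4.44% of all genes, and 0 were lower, against 2.93%. By probe set 5 of 19 were higher, against 4.6% of all probe sets, and 2 were lower, against 3.25%. Abcb1a was higher by 2.33 and 0.89, and Rgs5 by 0.57, 0.34 and 0.92 at the same 3 probe sets as before. The 2 lower probe sets were of Flt1, both at -0.29. Cldn5 stood at -0.13 and Pdgfrb at -0.20 and -0.13, so neither passed the line here. The SAMR1 arrays are shared with the strain comparison, so the higher Abcb1a and Rgs5 signals in both are set against the same 2 SAMR1 mice.

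Position along the chromosome was looked at after the Abcb1a and Rgs5 values had been seen. For each member the 5 nearest protein-coding genes with a probe set on each side were taken in the order of the RefSeq table for GRCm38.p6, each at its brightest probe set. Rgs5 lies on chromosome 1, and 4 of its 10 neighbours were higher in SAMP8 + Water than in SAMR1 + Water by at least 1.2-fold, where 3.68% of all genes were. They were Hsd17b7 (0.63), Rxrg (0.55), Ddr2 (0.34) and Rgs4 (0.31), and 0 of the 10 were lower. Rgs4, the gene next to Rgs5 and of the same family, was higher at each of its 3 probe sets, by 0.31, 0.44 and 0.86.

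Around Abcb1a on chromosome 5, 0 of the 10 neighbours were higher and 1 was lower, Tmem243 at -0.42. Abcb1b and Abcb4, the next genes, stood at 0.08 and 0.04. Rundc3b, whose span overlaps that of Abcb1a in the table, stood at -0.14. Over all 10 members, 7 of 100 neighbours were higher and 3 were lower. The higher signals near Rgs5 were thus spread over several genes, and near Abcb1a they stood alone among the genes read.

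**Figure D3:**
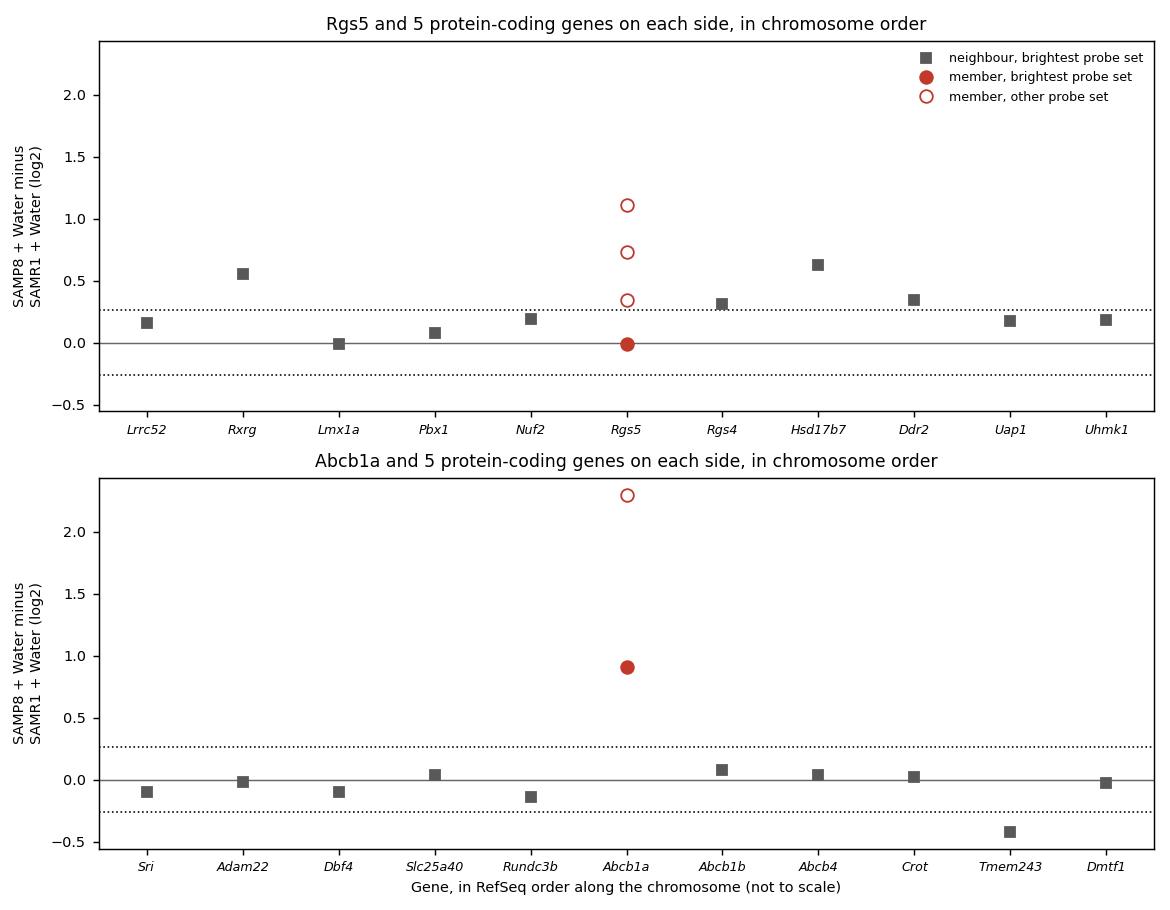
Strain difference (SAMP8 + Water minus SAMR1 + Water, log2, vertical axis) of Rgs5 and Abcb1a (circles, 1 per probe set) and of 5 protein-coding genes on each side (squares, brightest probe set), in chromosome order and not to scale. Dotted lines mark 1.2-fold. Hsd17b7, Rxrg, Ddr2 and Rgs4 lie above the upper line beside Rgs5, and none of the neighbours of Abcb1a does.

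Further vascular genes were read from 11 lists of 119 genes, each gene at its brightest probe set. Between the strains 3 of the 119 were higher in SAMP8 + Water by at least 1.2-fold (2.52%) and 8 were lower (6.72%), beside the array's 3.68% and 3.19%. The median was -0.04. With STEE 4 were higher (3.36%) and 2 lower (1.68%), beside 1.1% and 0.923%, with a median of -0.01.

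Of 7 ligands of the members' receptors, Pdgfb, which encodes the endothelial ligand of PDGFR-beta, was the only one past 1.2-fold in either comparison. It had 4.87 in SAMR1 + Water, 5.25 in SAMP8 + Water and 4.73 in SAMP8 + STEE, differences of 0.38 and -0.52. Its other probe set had 3.56, 3.62 and 3.52, so the sign was shared but not the size. Vegfa, the main ligand of Kdr, differed by 0.04 between strains and by -0.16 with STEE. Of 9 other vascular receptors and partners, 7 were lower in SAMP8 + Water and 0 passed the line.

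Among 13 further junction genes 0 passed in either comparison. Occludin (Ocln), another tight junction protein, had 5.02, 4.80 and 4.80 in SAMR1 + Water, SAMP8 + Water and SAMP8 + STEE, a strain difference of -0.22. Of 12 barrier transporters 2 were lower in SAMP8 + Water, the thyroid hormone transporter Slco1c1 (-0.42) and the transferrin receptor Tfrc (-0.40), and Tfrc was higher with STEE by 0.28. The other 2 Tfrc probe sets differed between strains by -0.03 and -0.08. Slc2a1, the endothelial glucose transporter GLUT1, had 8.39, 8.43 and 8.56.

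Of 18 other endothelial markers, 2 were higher and 1 was lower in SAMP8 + Water. Ly6a, the surface antigen Sca-1, was higher by 0.61, and a probe set that carries both Ly6c1 and Ly6c2 by 0.28. Car4, a carbonic anhydrase of the capillary surface, had -0.61, and -0.55 at its other probe set. With STEE, von Willebrand factor (Vwf) was higher by 0.30 and Cd34 by 0.27, but the signal of Vwf was below the array's median of 4.15 in every group. Of 12 endothelial transcription factors, Ets1 (-0.59) and Tal1 (-0.29) were lower in SAMP8 + Water, and 0 passed with STEE. Tal1 too had a signal below that median in every group. The 4 Ets1 probe sets stood at -0.59, -0.53, 0.01 and -0.09.

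The Wnt signal from neural cells induces barrier properties in brain endothelium. Of 12 genes of that pathway, Reck, which helps receive Wnt7 at the endothelial surface, had 6.20, 5.60 and 5.55 in SAMR1 + Water, SAMP8 + Water and SAMP8 + STEE, a strain difference of -0.60. Apcdd1, an inhibitor of Wnt signaling, had a strain difference of -0.52, and its other 5 probe sets lay between -0.33 and -0.14. No other gene of the 12 passed between the strains, and 0 passed with STEE.

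Other mural cell genes gave little. Of 14 further pericyte markers, 0 passed between the strains, with a median of -0.01, and Cspg4, the pericyte and oligodendrocyte progenitor proteoglycan NG2, stood at -0.25. With STEE only Zic1 passed, at -0.65, and its other probe set stood at -0.87. Zic1 is a transcription factor that neurons of several brain regions also express. Of 8 smooth muscle genes 0 passed, and Acta2, smooth muscle actin, differed by 0.12 between strains and by -0.23 with STEE. Of 9 basement membrane genes 0 passed.

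STEE-fed SAMP8 set against SAMR1 + Water repeated a part of the strain pattern in these lists, with the SAMR1 arrays in common. Of the 119 genes 6 were higher (5.04%) and 12 lower (10.1%), beside 4.44% and 2.93% of all genes, with a median of -0.06. Among the lower were Slco1c1 (-0.68), Ets1 (-0.67), Reck (-0.65), Zic1 (-0.64) and Apcdd1 (-0.53). Car4 (-0.37), the monocarboxylate transporter Slc16a1 (-0.35), the Wnt transcription factor Lef1 (-0.32), the sphingosine phosphate receptor S1pr1 (-0.30), Tal1 (-0.29) and Cspg4 (-0.27) were lower by less. Among the higher were Ly6a (0.46), the barrier lipid transporter Mfsd2a (0.41), Cd34 (0.35), the pericyte potassium channel subunit Abcc9 (0.29) and Tspan12 (0.27), a partner of the Wnt receptor Fzd4. Of those named, Slco1c1, Ets1, Reck, Apcdd1, Car4, Tal1 and Ly6a had also passed 1.2-fold between the strains. The others had not, among them Zic1 and Cd34, with strain differences of 0.01 and 0.08. Tal1 and Abcc9 had signals below the array's median of 4.15 in every group.

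Activated or leaky endothelium was read from 5 genes. Vcam1, an adhesion molecule of inflamed endothelium, stood at -0.26 between the strains and 0.13 with STEE at its brightest probe set, and at 0.12 and -0.17 at the next. Plvap, which forms the diaphragms of fenestrated vessels such as those of the choroid plexus, had 5.38, 5.05 and 5.40 in SAMR1 + Water, SAMP8 + Water and SAMP8 + STEE. It thus differed by -0.33 between strains and 0.35 with STEE. Ttr, the most abundant choroid plexus transcript, moved the same way, at 10.20, 8.24 and 9.33.

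**Figure D4:**
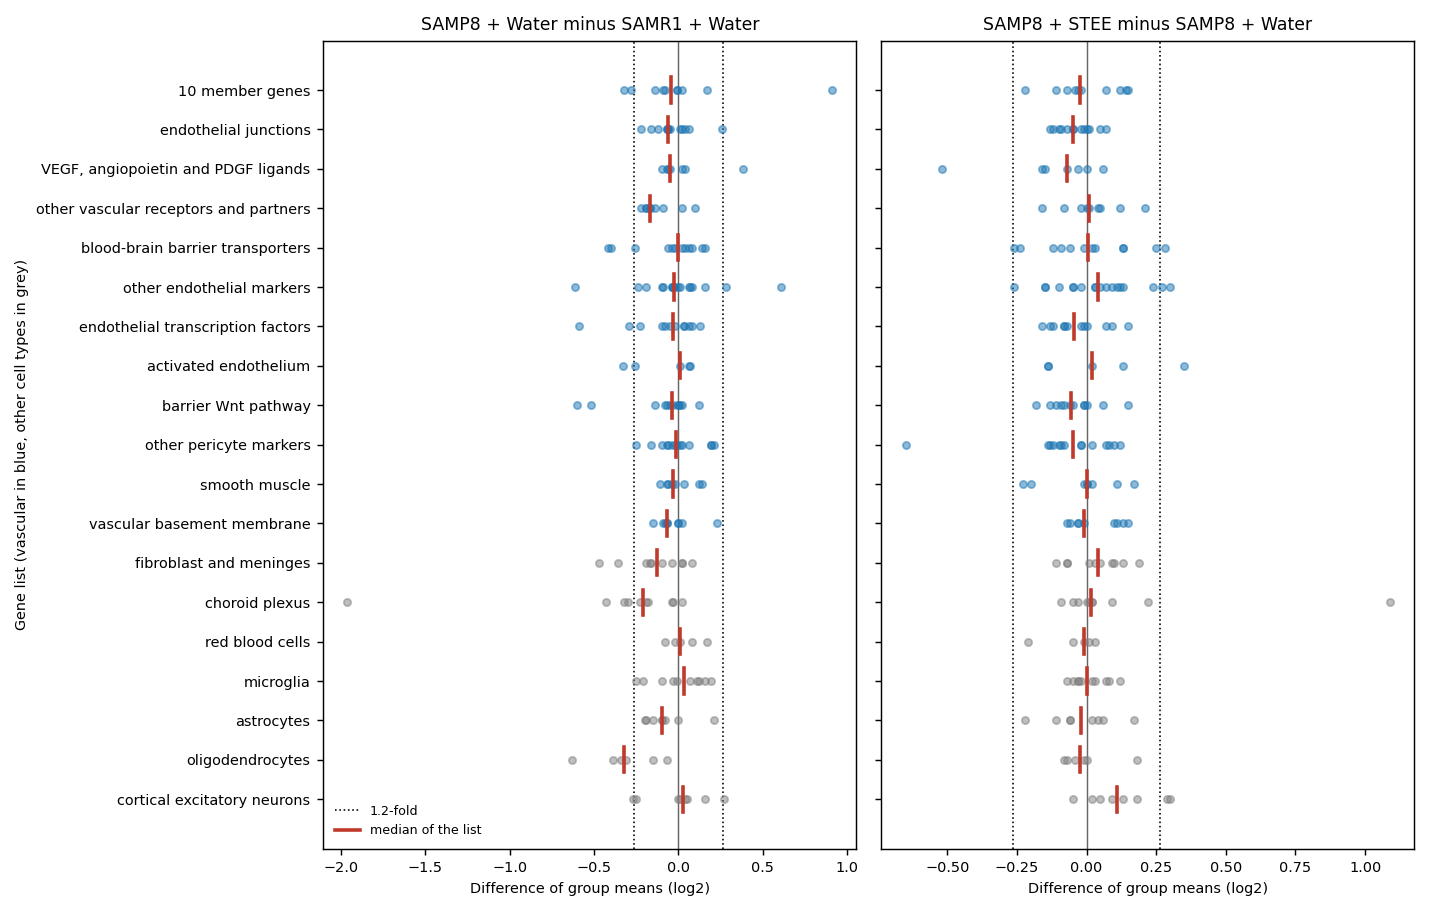
Differences of group means (log2, horizontal axis, strain on the left and STEE on the right, on different scales) for each gene of the members and of 18 lists, at its brightest probe set. Red bars are list medians and dotted lines mark 1.2-fold. Medians of the vascular lists lie between -0.17 and 0.04, and the oligodendrocyte list has the lowest median on the left, at -0.33.

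Markers of other cells also differed between the groups. Of 10 choroid plexus genes 4 were lower in SAMP8 + Water by at least 1.2-fold, Ttr (-1.96), Kcnj13 (-0.43), Otx2 (-0.32) and Kcne2 (-0.30), and the list's mean log2 signal was 4.85 in SAMR1 + Water, 4.48 in SAMP8 + Water and 4.61 in SAMP8 + STEE. Ttr weighs heavily in these means: the list's median difference was -0.21 between the strains and 0.01 with STEE, where Ttr alone stood at 1.09. Kcnj13, Otx2 and Kcne2 had signals below the array's median of 4.15 in every group, where a difference in the RNA is least visible. Of 10 fibroblast and meningeal genes 2 were lower, Igf2 (-0.47) and Dcn (-0.36), with list means of 4.98, 4.85 and 4.88, while Col1a1 stood at 0.08. The other probe sets of Igf2 and Dcn were nearly level, at -0.04 and -0.03. Both SAMP8 groups had lower mean signals of these lists than SAMR1 + Water, that of choroid plexus in large part through Ttr. Of 6 oligodendrocyte genes 4 were lower, Mog (-0.63), Mobp (-0.39), Cnp (-0.34) and Mag (-0.31), with list means of 9.79, 9.47 and 9.47. The 5 probe sets of Mobp ranged from -0.39 to -0.03, and the 3 of Cnp from -0.40 to -0.21.

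Blood, microglial and astrocyte genes differed less. Of 5 red blood cell genes 0 passed in either comparison, and the probe set of Hbb-b1, which it shares with other beta-globin genes, stood at 9.68, 9.60 and 9.63. Of 10 microglial and 8 astrocyte genes 0 passed between the strains or with STEE. Among the neuronal genes, Cux2 stood at -0.27 between the strains, and Cux2 at 0.30 and Tbr1 at 0.29 with STEE. The part of these other cells in the values of the members was not tested.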

How the data were processed

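Cortical RNA of 6 mice was hybridised to Affymetrix mouse arrays, 1 per mouse. RMA in Affymetrix Expression Console gave the signals, and the authors' group comparisons came from Transcriptome Analysis Console. The authors deposited for 45077 probe sets the log2 signal of each group as a bi-weight average of 2 arrays, rounded to 2 decimals, with a fold change, an ANOVA p-value and an FDR p-value for each of their comparisons. Those comparison columns were not used. The SAMP8 + Water means were the same in both tables (0 differences), so STEE-fed SAMP8 could be set against SAMR1. Gene symbols are those of the deposited tables, whose annotation build is not given in the sources used here, and 5694 probe sets carried none.

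Differences of group means were computed here with Python 3.11.15, numpy 2.4.6 and pandas 2.3.3. No test was possible on means, and 2 mice per group limit the precision. A gene's value is its probe set with the highest mean signal over the groups, and every member probe set is also given. Genes named beside the 10 members are those of 18 lists (176 genes, all found) past 1.2-fold, up to 3 a list and comparison, and 12 genes named whatever their values. A listed gene that met this rule is not reported here. Chromosome neighbours, further probe sets of named genes, Kcne2 and Mag were added after their values were seen. The members and lists were chosen with earlier results of these data known. Counting was tested on simulated data.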

Additional observations from a re-analysis of the deposited data

How the results depend on the processing

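Only group means were used, so leaving out a mouse could not be run. No paired analysis was possible because the columns are group means that carry no replicate number. A median is called moved here where it shifted by over 0.01, since no spread between mice is known. The median strain difference of the 10 genes was -0.08 instead of -0.04 with probe sets above the median signal alone, which left 8 genes. The median difference with STEE was -0.01 instead of -0.03 with the median over a gene's probe sets. For SAMP8 + STEE minus SAMR1 + Water the median was -0.05, and it was -0.08 with the mean over probe sets, -0.08 with the median over probe sets and -0.09 with probe sets above the median signal.

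Counts of members past the fold followed the line drawn. At 1.1-fold they were 5 for strain, 3 for STEE and 4 for SAMP8 + STEE minus SAMR1 + Water, instead of 3, 0 and 1. At 1.5-fold the strain count was 1, Abcb1a. The shares of all genes past 1.1-fold and 1.5-fold are not given here, so these counts cannot be set against the array. For SAMP8 + STEE minus SAMR1 + Water the count was 2 with the mean and 2 with the median over probe sets, with Rgs5 beside Abcb1a. The strain count stayed at 3 with the mean over probe sets, but with Rgs5 (0.54) in and Pdgfrb (-0.26) out. Centring on the median of all probe sets or keeping probe sets with a single symbol moved no member's difference by over 0.01, and centring within twentieths of mean signal moved none by over 0.05.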
